A study of Harpegnathos saltator with 37 samples.

Results

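In the central brain of the ant Harpegnathos saltator, 17 of 14001 genes averaged under 1 FPKM in late pupae and at least 5 FPKM in each of 6 adult groups. FPKM is a level given as fragments per kilobase of transcript, scaled to sequencing depth. The genes were chosen by those group means, so the difference between adults and pupae is described here without a test. In all, 4862 genes had a pupal mean under 1 FPKM, 115 of them reached 5 FPKM in at least 1 adult group, and 5533 genes held at least 5 FPKM in every adult group. Of the 17 genes, 15 were protein-coding and 2 were long noncoding RNAs (LOC112588165 and LOC105186944). Long noncoding RNAs were 11.8% of the 17 and 1.88% of all matched genes with at least 5 FPKM in every adult group. A symbol was given for 2, Lop1 (LOC105189783) and Hexo1 (LOC105184376), and the other 15 carry only a number, so no role is given to them.

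Harpegnathos workers that win antennal duels in a colony without a queen can mate, lay eggs and become gamergates, while other workers hunt and do not reproduce. The ants came from nests set up without a queen, each with 25 callow (newly emerged) females aged 5 days and 3 males. The adult groups were 5 libraries of duelers and 4 of workers at day 10, 5 of gamergates and 4 of workers at day 20, and 6 of dominant gamergates and 9 of hunting workers at day 120, beside 4 libraries of late pupae. Duelers were recognised by watching the duels, day 120 gamergates by mature oocytes, and hunting workers by hunting scored after 100 days, so both day 120 groups were selected for their role. Dissection took away the optic lobes and the gnathal ganglion, with some 95% of the tissue of the antennal lobes, and 600 ng of total RNA went into each strand-specific library of polyadenylated RNA. Late pupae were sequenced in run 3, day 10 in run 2 and day 20 in run 5. Day 120 was divided between run 1, with 1 gamergate and 4 hunting worker libraries, and run 4, with 5 of each, so stage or adult age cannot be told apart from the run. Separate nests for the libraries within a group are not stated in the labels, and p-values therefore measure only the spread between these libraries.

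An insect that passes through a pupa rebuilds its brain before adult emergence, pruning larval circuits and wiring new ones, and some gene products used in sensing and defence appear only around or after emergence. Opsins are the light receptors of photoreceptor cells, arrestins end their signal, and peptidoglycan recognition proteins bind bacterial cell wall in insect immunity. Beta-hexosaminidases remove terminal amino sugars from glycans, a role known for Hexo1 in Drosophila.

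Depth was between 9.20 and 55.78 M reads in each library, and between 14.49 and 15.91 M in pupae. Of 13 neuronal markers 12 were measured, and their summed level was 600 to 1517 FPKM in adults and 400 to 918 FPKM in pupae. The fat body and yolk sum was 1829 to 6306 FPKM in adults and 597 to 1209 FPKM in pupae. These ranges did not overlap, but Tsf1 held 80.4% of the adult sum. Without Tsf1 the sum was 181 to 4004 FPKM in adults and 132 to 247 FPKM in pupae, with overlap. Hex110 and Hex70c had higher means in pupae, and the other genes measured had higher means in adults. Hemocyte sums did not overlap, at 13.9 to 30.8 FPKM in adults and 34.1 to 72.0 FPKM in pupae. Muscle sums were 16.8 to 809 and 11.1 to 30.5 FPKM, and cuticle sums 32.2 to 27159 and 33.2 to 100 FPKM. Pupal replicate 2 stood apart from the other pupae. Gs2, a glutamine synthetase symbol used as a glial marker, was at 293 FPKM in that library, against 7.19, 8.0 and 22.4 FPKM in the other pupae. Every marker list but the retinal one had its highest pupal sum there. The neuronal sum was 918 FPKM, against 400 to 482 in the others, and the fat body and yolk sum 1209, against 597 to 682. Muscle was at 30.5 against 11.1 to 14.6, cuticle at 100 against 33.2 to 40.6, and hemocytes at 72.0 against 34.1 to 43.0 FPKM. Without Gs2 the glial sum was 40.2 to 85.2 FPKM in adults and 111 to 193 FPKM in pupae. The part of these lists in the difference of the 17 genes between adults and pupae was not tested. Retinal markers were present in many adult libraries although the optic lobes had been removed, as described with the eye genes.

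In pupae the 17 genes rested on few reads. Summed over all 4 pupal libraries, the reads per gene ranged from 3 for LOC112589398 to 283 for LOC105184993. Pupal replicate 2 held 410 reads over the 17 genes, against 253, 199 and 153 in replicates 1, 3 and 4. It gave the highest pupal value of 10 of the 17 genes, where 36.7% of the 3483 genes with a pupal mean above 0 and under 1 FPKM had their highest value in that library. It was also at or above 1 FPKM for 5 of the 17.

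The genes closest to the limits were as follows. LOC105184993 had a pupal mean of 0.968 FPKM, LOC105190668 of 0.840 and LOC105186944 of 0.581, just inside the upper limit for pupae. Just outside it were LOC105190006 at 1.01 FPKM, Crz (the corazonin neuropeptide gene) at 1.01 and LOC105190011 at 1.04. On the adult side, the lowest adult group mean was 5.02 FPKM for LOC105182338, 5.43 for LOC105184993 and 5.56 for LOC105192486. Outside were LOC105186979 at 4.74, Vgn at 4.73 and LOC105189885 at 4.67 FPKM. With pupal replicate 2 left out, 32 genes met the rule, 16 of the 17 among them. Requiring every pupal library under 1 FPKM left 11 genes, and requiring every adult library at 5 FPKM or more left 4. With adult group medians of at least 5 FPKM, 16 genes met the rule, 14 of the 17 among them. Lost were LOC105180703 (median 1.81 FPKM in day 120 gamergates), Lop1 (4.65 in duelers) and LOC105182338 (4.71 in day 10 workers). After scaling every library to the same total (TPM), 16 genes met the rule, without LOC105182338 and LOC105184993.

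For 16 of the 17 genes every adult library was above every pupal library. The rule itself favours such a separation, since it asked for low pupal and higher adult group means. The share over other genes is not given here, so the count is a description only. Lop1 was the exception to that separation, at 0.207 FPKM in worker replicate 4 at day 10, against 0.210 to 0.376 FPKM in pupae. In bulk tissue, fewer cells of a type and less RNA per cell cannot be told apart.

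**Figure D1:**
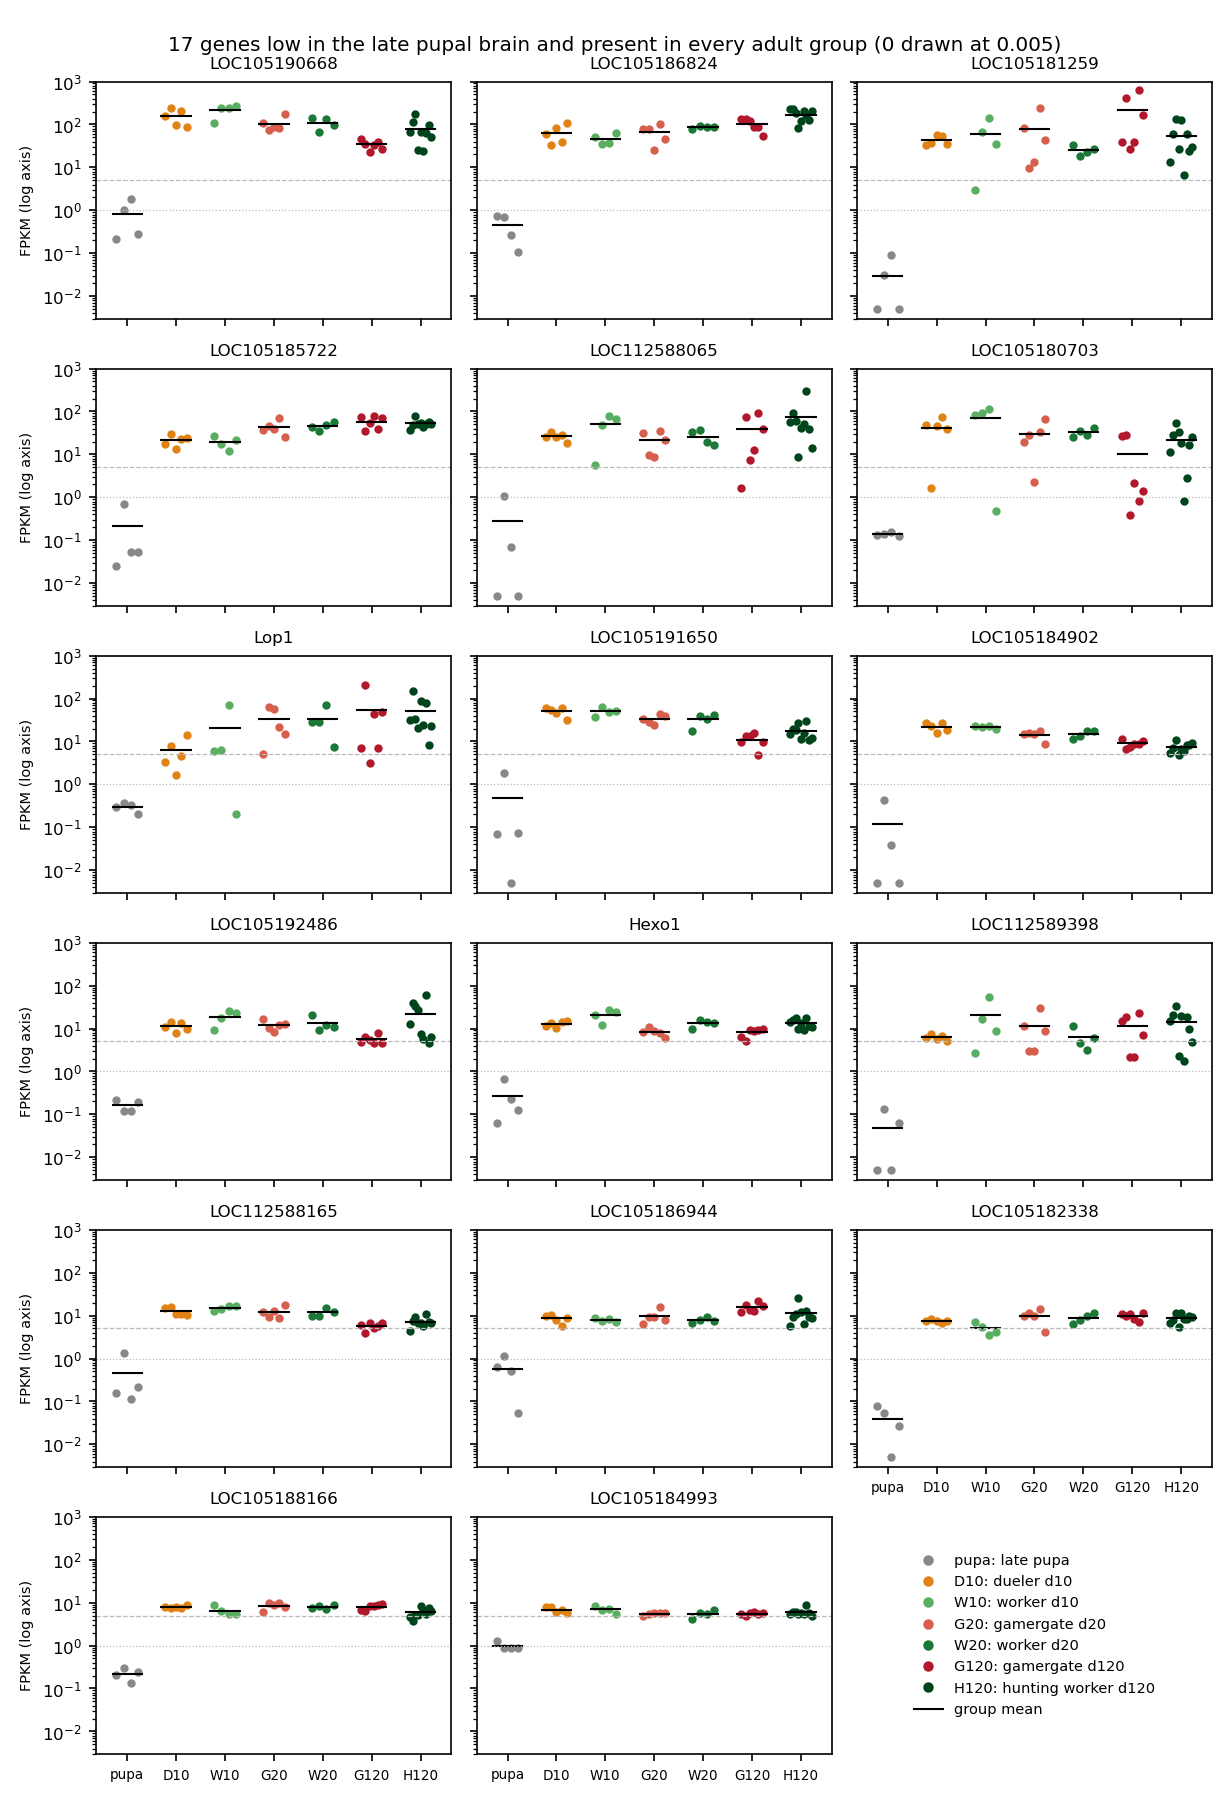
FPKM of the 17 genes in each library (points, log axis, 0 drawn at 0.005) by group, with group means as bars and dotted and dashed lines at 1 and 5 FPKM. Pupal points lie under the adult points in every panel but that of Lop1, where 1 worker library at day 10 is at 0.207 FPKM.

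The most abundant of the 17 were LOC105190668, with a mean of the 6 adult group means of 116 FPKM, LOC105186824 at 89.3 FPKM and LOC105181259 at 79.7 FPKM. LOC105190668 stood between 22.6 and 265 FPKM in the 33 adult libraries and at 0.216, 1.04, 1.82 and 0.277 FPKM in the 4 pupae. LOC105186824 stood between 25.6 and 229 FPKM in adults and at 0.741, 0.698, 0.260 and 0.109 FPKM in pupae. LOC105181259 lay between 3.00 and 629 FPKM in adults and had 4 reads in all over the pupae. None of these 3 carries a symbol. Next came LOC105185722 at 40.2 FPKM, LOC112588065 at 39.3, LOC105180703 at 34.8, Lop1 at 33 and LOC105191650 at 32.7 FPKM. The other 9 had adult means from 6.02 FPKM for LOC105184993 to 15.0 FPKM for LOC105184902.

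The 17 genes also differed in how evenly they were present. All 17 passed the filter on low values, so they are among the 9986 genes tested in the adult comparisons below. Their median spread between libraries of a group, a residual SD of log2(FPKM + 0.5), was 0.47, against 0.24 over all genes tested. It was above that overall median for 16 of the 17 and above the 90th percentile for 9. LOC105180703 was the most uneven with an SD of 2.02, followed by Lop1 at 1.69, LOC105181259 at 1.56, LOC112588065 at 1.39 and LOC112589398 at 1.26. LOC105184993 was the most even at 0.20, and LOC105188166 had 0.25.

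LOC105184993 and LOC105188166 were also the steadiest between adult groups. LOC105184993 had group means from 5.43 FPKM in day 20 gamergates to 6.93 FPKM in day 10 workers, a coefficient of variation of 11.6%. LOC105188166 ranged from 5.88 FPKM in hunting workers to 8.41 FPKM in day 20 gamergates, a coefficient of 13.3%. LOC105182338 had 21.8%, LOC105186944 30.2% and LOC112588165 33.1%. At the other end, LOC105181259 had 87.2%, LOC105180703 61.2%, Lop1 54.7%, LOC105190668 54.0% and LOC112588065 49.9%.

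The opsin gene Lop1, whose symbol denotes a long-wavelength opsin in the honey bee, varied widely between adult libraries. Duelers at day 10 had 3.41, 7.98, 1.70, 4.65 and 14.0 FPKM and workers 6.13, 6.17, 69.1 and 0.207 FPKM. At day 20 gamergates had 5.12, 65.1, 57.5, 21.6 and 14.9 FPKM and workers 28.0, 28.9, 69.7 and 7.44 FPKM. At day 120 the lowest, median and highest values were 3.14, 25.7 and 212 FPKM in gamergates and 8.36, 31.3 and 150 FPKM in hunting workers. In every adult group the highest library was several times the lowest, and the castes overlapped at each age. In order of group means, Lop1 was at 6.34 FPKM in duelers, 20.4 in day 10 workers, 32.8 in day 20 gamergates, 33.5 in day 20 workers, 51.1 in hunting workers and 53.7 in day 120 gamergates. Neighbours in that order overlapped in range, and only those of the same age were compared by a test. Of groups farther apart in it, 4 of 5 day 20 gamergates were above every dueler. That log2 difference was 2.08 (SE 0.97) and was not called (adjusted p = 0.117 in limma).

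LOC105180703 divided the adult libraries into a low and a high set. In 9 of 33 it lay between 0.397 and 2.87 FPKM, and in the other 24 between 11.6 and 114 FPKM, with pupae at 0.125 to 0.157 FPKM. The low set held 1 of 5 duelers and 1 of 4 workers at day 10, 1 of 5 gamergates and 0 of 4 workers at day 20, and 4 of 6 gamergates and 2 of 9 hunting workers at day 120. In the adult groups other than day 20 workers its mean therefore averaged libraries of both sets, as in day 10 workers with 83.3, 91.2, 114 and 0.489 FPKM.

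The same 9 libraries were low in genes of photoreceptor cells. Arr1, a visual arrestin symbol in Drosophila, was at 0.441 to 2.99 FPKM in the 9 and 11.8 to 107 FPKM in the 24. Lop2, a second long-wavelength opsin symbol, was at 3.87 to 5.29 FPKM in the 9 and 17.3 to 62.1 FPKM in the 24, and Arr2 at 6.74 to 87.0 and 150 to 826 FPKM. The summed level of the retinal list, of which 7 of 10 genes were measured, was 12.3 to 95.7 FPKM in the 9 and 174 to 940 FPKM in the 24, with pupae at 9.19 to 31.1 FPKM. Of the list, chp at 1.85 to 5.28 and 2.69 to 13.0 FPKM, and trp at 0.854 to 1.19 and 0.851 to 1.91 FPKM, overlapped between the 9 and the 24, and trpl, at a mean of the adult group means of 0.136 FPKM, was at 0 in at least 1 adult library. The part of retinal tissue in the level of LOC105180703 was not tested.

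Because the libraries fell into separate sets, relations were computed within each. They used levels, not deviations from group means, and libraries were permuted across groups within a set. Differences between groups and runs therefore enter these values of r and p, which do not separate them from a relation within groups. Over the 24 libraries, log2 levels of LOC105180703 and of the retinal list gave Pearson's r = 0.85 and Spearman's rho = 0.82 (permutation p = 1e-05 and 2.00e-05, adjusted p = 2.00e-05 and 4.00e-05 over 8 relations), where 1e-05 is the smallest p that 100000 permutations can give. Without the 2 libraries farthest from the median r was 0.86. Over the 9 libraries r was 0.86 and rho 0.82 (permutation p = 0.00418 and 0.0109, adjusted p = 0.00478 and 0.0125), and r was 0.65 without the 2 farthest. In these relations the list was the mean of its genes' log2 levels, not its sum, of which Arr2 held 87.6% in adults. Arr2 by itself gave r = 0.94 over the 9, and 0.92 without 2. Lop2 gave no such relation there, at r = 0.48 and rho = 0.37 (permutation p = 0.191 and 0.336, adjusted p = 0.191 and 0.336), with r = -0.51 without 2. Among the 24, r was 0.81 over the 7 libraries of run 2 and 0.65 over the 8 of run 5, and the other runs and the 9 libraries held too few within a run for a value.

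Lop1 did not divide the libraries in this way. In the 9 libraries low in LOC105180703 it ranged from 0.207 to 80.1 FPKM, and in the 24 from 1.70 to 212 FPKM. The gene whose deviations from the group means were most like those of Lop1, of 9985 compared over 33 adult libraries, was Rh5, an opsin symbol in Drosophila (Pearson's r = 0.86, Spearman's rho = 0.88, given as a description). Rh5 itself was low, with a mean of the adult group means of 1.76 FPKM and a pupal mean of 0.154 FPKM. The next was CPR27 at r = 0.65. In the reference gene order Lop1 lies next to Lop2.

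**Figure D2:**
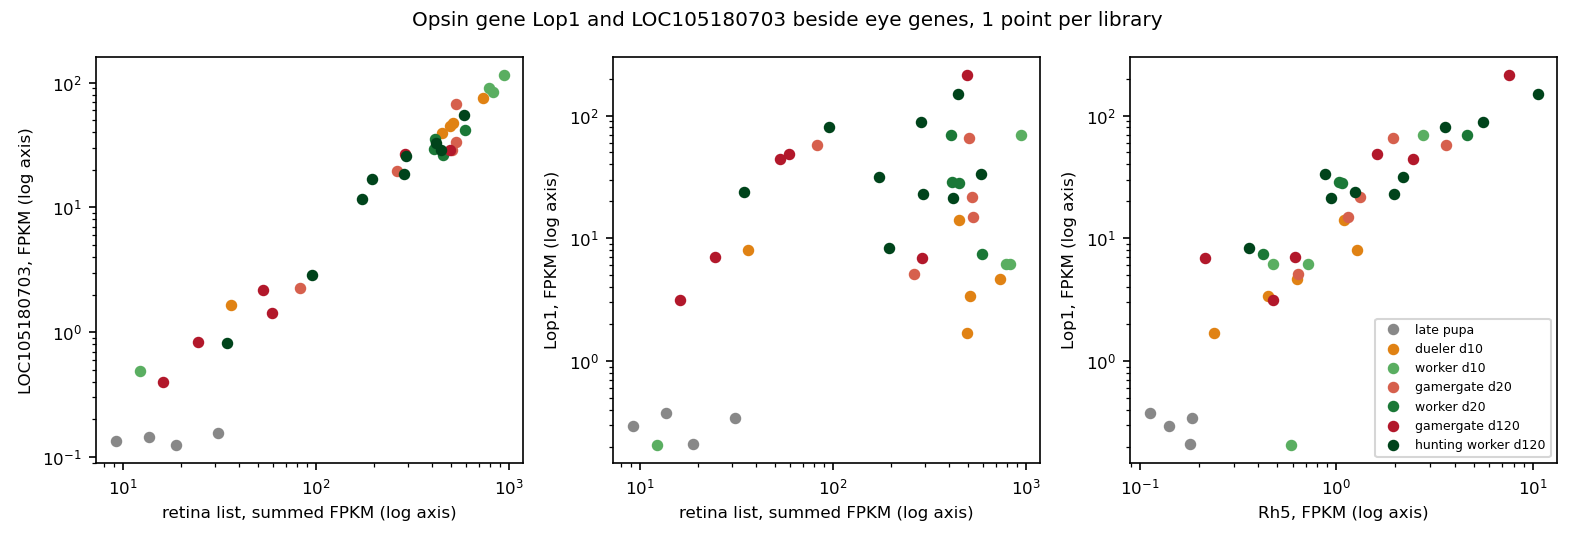
LOC105180703 (left) and Lop1 (middle) against the summed FPKM of the retinal list, and Lop1 against Rh5 (right), 1 point per library on log axes, coloured by group. LOC105180703 follows the retinal list from 0.397 to 114 FPKM in adults, while Lop1 ranges from 0.207 to 80.1 FPKM in the 9 adult libraries low in LOC105180703.

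LOC105181259, LOC112588065 and LOC112589398 were also uneven between libraries of a group. LOC105181259 was at 32.8, 37.5, 58.1, 54.0 and 34.5 FPKM in duelers and 3.00, 67.9, 139 and 34.5 FPKM in day 10 workers. At day 120 its lowest, median and highest values were 26.8, 102 and 629 FPKM in gamergates and 6.57, 29.8 and 135 FPKM in hunting workers. The 2 highest libraries of all were day 120 gamergates, at 629 and 405 FPKM, and 3 of the 6 gamergates were above every hunting worker.

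Over 33 adult libraries, deviations of LOC105181259 and LOC112589398 from the group means gave Pearson's r = 0.83 and Spearman's rho = 0.80 (permutation p = 1e-05 for both, adjusted p = 0.00120 for both over the 120 pairs of the 16 genes other than LOC105180703). The r was 0.79 without the 2 farthest libraries, and 0.93 in run 2, 0.95 in run 5 and 0.96 in run 4, while run 1 had too few libraries for a value. Deviations within the day 120 groups keep any difference between runs 1 and 4, which enters all values over 33 libraries. For LOC105181259 and LOC112588065, r was 0.68 and rho 0.75 (permutation p = 0.000780 and 0.000130, adjusted p = 0.0156 and 0.00780), with 0.62 without 2 libraries and 0.92, 0.83 and 0.64 in runs 2, 5 and 4. For LOC112588065 and LOC112589398, r was 0.59 and did not pass (permutation p = 0.00450, adjusted p = 0.0675), while rho was 0.65 (permutation p = 0.000910, adjusted p = 0.0156), with 0.59 without 2 libraries and 0.83, 0.84 and 0.72 in the 3 runs. LOC112589398 also varied with LOC105190668, at r = 0.65 and rho = 0.61 (permutation p = 0.000200 and 0.000420, adjusted p = 0.00780 and 0.0126), with 0.55 without 2 libraries and 0.55, 0.21 and 0.71 in the runs. Of the 120 pairs, 7 had an adjusted p under 0.05 for r. The others were LOC105185722 with LOC105184902 (r = 0.60) and with LOC105182338 (0.65), LOC105184902 with LOC105182338 (0.66), and LOC105192486 with LOC105188166 (-0.64). Their adjusted permutation p-values were 0.0156, 0.00780, 0.00780 and 0.0177. For LOC105184902 with LOC105182338, r was 0.06, 0.98 and 0.03 in runs 2, 5 and 4.

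The genes most like LOC105181259 were LOC105190161 (r = 0.94, rho = 0.91) and PGRP-S3 (r = 0.94, rho = 0.89), a peptidoglycan recognition protein symbol. PGRP-S3 was far lower in level, with a mean of the adult group means of 3.72 FPKM. Of other immune symbols chosen after these values were seen, Def2, a defensin symbol, had r = 0.22 with LOC105181259, imd 0.00, Rel -0.15 and Tl -0.19. All 3 genes, LOC105181259, LOC112588065 and LOC112589398, also varied with the fat body and yolk list, of which 6 of 9 genes were measured. For LOC105181259 r was 0.75 and rho 0.77 (permutation p = 4.00e-05 and 2.00e-05, adjusted p = 0.00112 and 0.000840 over 112 relations), and r was 0.91, 0.72 and 0.89 in runs 2, 5 and 4. For LOC112588065 r was 0.67 and rho 0.59 (permutation p = 0.00163 and 0.00455, adjusted p = 0.0228 and 0.0392), with 0.81, 0.59 and 0.54 in the 3 runs. For LOC112589398 r was 0.61 and rho 0.60 (permutation p = 0.00237 and 0.00295, adjusted p = 0.0265 and 0.0275), with 0.89, 0.87 and 0.80 in the runs. Without the 2 farthest libraries the 3 values of r were 0.69, 0.62 and 0.53. That list entered r as the mean of its genes' log2 levels, not as a sum. Its summed level was 3026 to 6306 FPKM in day 120 gamergates and 1940 to 3946 FPKM in hunting workers, with Hex70a, Hex110 and Hex70c at 0 in at least 1 adult library. Its part in the levels of these genes was not tested.

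**Figure D3:**
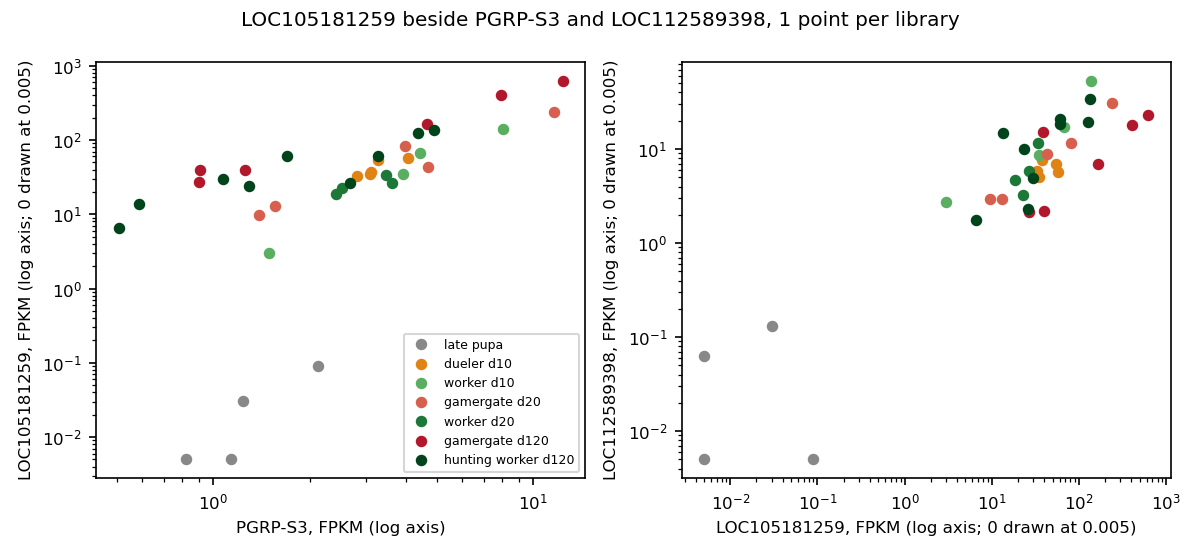
LOC105181259 against PGRP-S3 (left) and LOC112589398 against LOC105181259 (right), in FPKM on log axes, 1 point per library coloured by group, 0 drawn at 0.005. Day 120 gamergates include the 2 highest values of LOC105181259, 629 and 405 FPKM. Pupae lie at 0.0901 FPKM or less for LOC105181259, at 0.131 FPKM or less for LOC112589398 and at 0.822 to 2.12 FPKM for PGRP-S3.

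LOC112588065 and LOC112589398 lie in a run of 9 consecutive genes in the reference order, with LOC112589399 between them. No other pair of the 17 lay within 2 genes of each other. Every gene of the run had a pupal mean of 0.281 FPKM or less. LOC112589399 missed the rule on the adult side, with a group mean of 4.37 FPKM in duelers and 24.0 FPKM in day 120 gamergates, and LOC112589397 reached 9.31 FPKM in hunting workers and 2.59 FPKM in day 20 workers. LOC112589400, LOC105181820 and LOC105181824 had adult group means from 0.523 to 6.61 FPKM, and LOC105181822 and LOC105181823 from 0.0184 to 1.20 FPKM. Deviations of LOC112589399 from the group means had r = 0.89 with those of LOC112589398, and LOC105181823 had the lowest, 0.52. Whether these neighbours share reads was not tested, so the division of levels among them is uncertain.

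**Figure D4:**
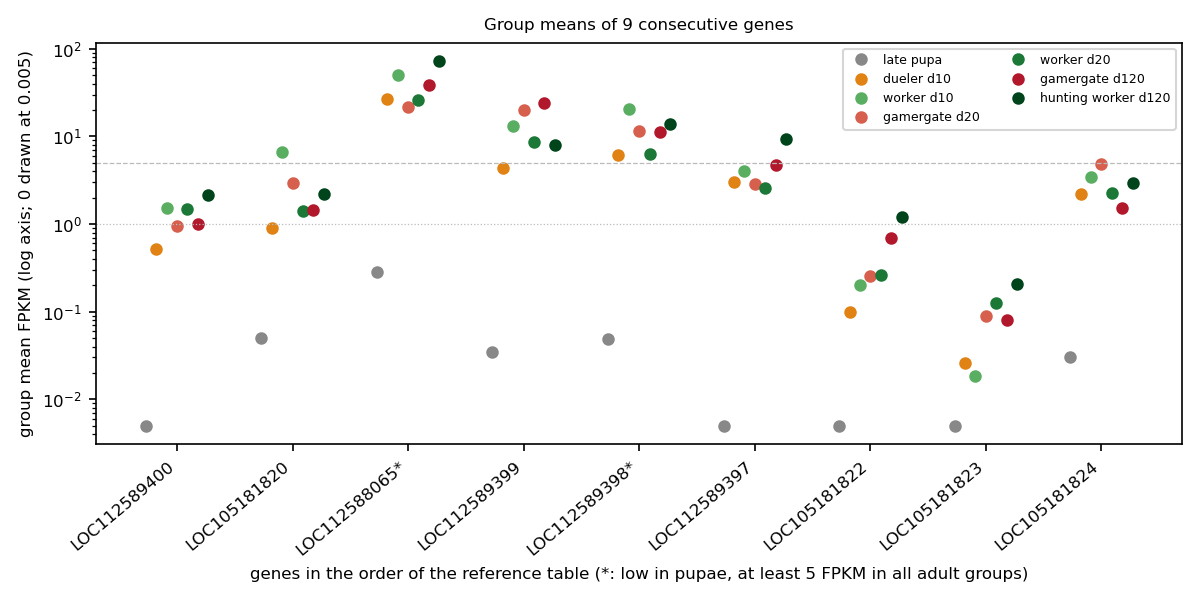
Group mean FPKM (log axis, 0 drawn at 0.005) of 9 consecutive genes in the reference order, with asterisks on LOC112588065 and LOC112589398. Adult means range from 0.0184 to 73.0 FPKM, while pupal means are 0.281 FPKM or less for every gene.

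Between castes, none of the 17 genes passed at any age in limma on log2(FPKM + 0.5) with Benjamini-Hochberg adjustment over all 9986 genes at a threshold of 0.05. In duelers against workers at day 10 the count was 0 of 17, where 0.0200% of all genes passed. In gamergates against workers at day 20 it was 0 of 17, where 0.0100% passed, and in gamergates against hunting workers at day 120 it was 0 of 17, where 0.0601% passed, 0.0200% higher and 0.0401% lower. At an unadjusted p under 0.05 there were 3, 1 and 8 of the 17, where 5.48%, 2.15% and 14.4% of all genes were under it. limma-voom on recovered reads called 0 at each age, and array weights called 0, 0 and 1, with no share of all genes given for these settings. The difference between the day 120 and the day 10 caste differences was called for 0 of 17 genes and 0% of all genes. At an unadjusted p under 0.05 there was 1 of 17, where 3.20% of all genes were under it, and voom and array weights called 0. Median log2 differences of the 17 were -0.01, -0.07 and -0.29 at days 10, 20 and 120, against -0.01, -0.00 and -0.01 over all genes tested.

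Hexo1 had the lowest adjusted p of any caste comparison. At day 120 its lowest, median and highest values were 4.99, 8.99 and 10.0 FPKM in gamergates and 9.26, 13.4 and 17.7 FPKM in hunting workers, with 5 of 6 gamergates below every hunting worker. The log2 difference was -0.67 (SE 0.19, adjusted p = 0.200 in limma), at -0.55 within run 4 and -1.07 within run 1. At day 20 gamergates had 8.40, 10.9, 8.98, 7.82 and 6.03 FPKM and workers 9.83, 16.1, 14.4 and 13.5 FPKM, a log2 difference of -0.65 (SE 0.23, adjusted p = 1.000 in limma). Of the 5 gamergates, 4 were below every worker. At day 10 duelers averaged 12.9 ± 2.02 FPKM (SD, n = 5) and workers 21.0 ± 6.29 FPKM (n = 4), a log2 difference of -0.64 (SE 0.23) with overlapping groups.

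At day 120 the other genes at an unadjusted p under 0.05 in limma were LOC105192486, LOC105188166, LOC105186944, LOC112588065, LOC105186824, LOC105190668 and LOC105191650. LOC105192486 was at 4.56, 5.08 and 7.73 FPKM (lowest, median, highest) in gamergates and 4.61, 13.0 and 60.6 FPKM in hunting workers, a log2 difference of -1.11 (SE 0.37, adjusted p = 0.312), at -0.73 within run 4 and -2.30 within run 1. LOC105188166 was at 6.30, 8.33 and 9.12 FPKM in gamergates and 3.76, 5.46 and 8.12 FPKM in hunting workers, a log2 difference of 0.31 (SE 0.11, adjusted p = 0.321). The groups overlapped for both genes. LOC105186944 stood at 0.60, LOC105186824 at -0.67, LOC105190668 at -0.80, LOC105191650 at -0.62 and LOC112588065 at -1.58 on the log2 scale, with adjusted p from 0.321 to 0.342 in limma. LOC112588065 differed by -0.72 within run 4 and -4.27 within run 1, where the 1 gamergate library was at 1.66 FPKM, the lowest of all adult values of that gene.

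With adult age more of the 17 genes changed. From day 10 to day 120, 8 of 17 were called in workers, 3 higher and 5 lower, where 24.6% of all genes were called, 13.0% higher and 11.6% lower. In the gamergate line, day 120 gamergates against day 10 duelers, 7 of 17 were called, 2 higher and 5 lower, where 25.1% of all genes were called, 13.1% higher and 12.0% lower. After scaling to TPM, which gives every library the same total, 57.8% of all genes were called in workers, 55.2% higher and 2.56% lower, beside 9 of 17, 5 higher and 4 lower. TPM scaling called 25.4% of all genes in the gamergate line, 20.8% higher and 4.58% lower, beside 7 of 17, 3 higher and 4 lower. The sign was the same in both lines for 15 of 17 genes, where it was the same for 81.7% of all genes tested. Called in both were 6 genes, 75.0% of the worker calls and 85.7% of the gamergate calls, where 64.6% and 63.3% of the calls over all genes were shared. These comparisons share no library, but both set runs 1 and 4 against run 2. Age, run and the selection for hunting or for dominance cannot be told apart in them.

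LOC105185722 rose with age in both castes. In workers it averaged 19.5 ± 6.19 FPKM at day 10 (SD, n = 4), 45.7 ± 9.19 at day 20 (n = 4) and 52.6 ± 10.9 at day 120 (n = 9). In the gamergate line it averaged 21.5 ± 6.56 FPKM at day 10 (n = 5), 43.6 ± 16.3 at day 20 (n = 5) and 58.1 ± 17.8 at day 120 (n = 6). Every hunting worker, at 37 to 76.9 FPKM, was above every day 10 worker, at 26.9, 17.5, 12.3 and 21.6 FPKM, and every day 120 gamergate, at 35.2 to 76.6 FPKM, was above every dueler, at 17.5, 30.2, 13.1, 22.3 and 24.4 FPKM. The log2 difference between days 120 and 10 was 1.44 in workers (SE 0.25, adjusted p = 8.21e-05 in limma) and 1.45 in the gamergate line (SE 0.26, adjusted p = 0.000185). It already passed at day 20 against day 10, at 1.24 in workers (SE 0.29, adjusted p = 0.00269) and 0.98 in the gamergate line (SE 0.26, adjusted p = 0.00616).

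LOC105186824 rose in workers, with a lowest, median and highest value of 82.1, 181 and 229 FPKM in hunting workers at day 120, against 50.7, 35.1, 37 and 63.8 FPKM in workers at day 10. The groups did not overlap, and the log2 difference was 1.84 (SE 0.32, adjusted p = 7.62e-05 in limma). In the gamergate line it was at 103 ± 31.6 FPKM at day 120 (SD, n = 6) and 63.7 ± 30.8 FPKM in duelers (n = 5), a log2 difference of 0.82 (SE 0.33) that was not called (adjusted p = 0.0701). Whether the castes differ in this change was not called either, at -1.02 (SE 0.46, adjusted p = 1.000 in limma). LOC105182338 rose in workers, to 8.68 ± 1.96 FPKM in hunting workers (SD, n = 9), against 5.02 ± 1.58 FPKM in day 10 workers (n = 4), a log2 difference of 0.73 (SE 0.20, adjusted p = 0.00735). It was 1.14 under TPM scaling (adjusted p = 0.000187), and without day 10 worker replicate 3 it was 0.60 and not called (adjusted p = 0.0632). In the gamergate line it averaged 9.72 ± 1.65 FPKM at day 120 (SD, n = 6) and 7.43 ± 0.542 FPKM in duelers (n = 5), a log2 difference of 0.30 (SE 0.21) that was not called (adjusted p = 0.307).

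The long noncoding RNA LOC105186944 rose in the gamergate line. Its lowest, median and highest values were 12.2, 15.3 and 22.3 FPKM in day 120 gamergates, against 9.80, 10.4, 7.89, 5.86 and 8.90 FPKM in duelers, with no overlap. The log2 difference was 0.87 (SE 0.28, adjusted p = 0.0215 in limma), and it was 0.75 and not called without dueler replicate 4 (adjusted p = 0.0687). In workers it was 0.36 (SE 0.26) and not called (adjusted p = 0.339).

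Lower at day 120 in both castes, and called in both, were 5 genes, namely LOC105191650, LOC105190668, LOC105184902, LOC112588165 and Hexo1. LOC105191650 was at 11.1, 15.9 and 30.6 FPKM (lowest, median, highest) in hunting workers, against 36.6, 63.7, 49.0 and 50.7 FPKM in day 10 workers. In the gamergate line it was at 4.78, 11.6 and 15.4 FPKM at day 120, against 60.2, 52.8, 45, 59.2 and 32.4 FPKM in duelers. Neither pair of groups overlapped, and the log2 differences were -1.49 (SE 0.32, adjusted p = 0.000882 in limma) in workers and -2.10 (SE 0.34, adjusted p = 4.04e-05) in the gamergate line.

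LOC105190668, the most abundant of the 17, was at 24.6, 67.5 and 176 FPKM in hunting workers, against 106, 246, 238 and 265 FPKM in day 10 workers, with 7 of 9 hunting workers below every day 10 worker. In the gamergate line it was at 22.6, 34.6 and 46.9 FPKM at day 120, against 158, 240, 99.2, 211 and 85.5 FPKM in duelers, without overlap. The log2 differences were -1.61 (SE 0.39, adjusted p = 0.00267 in limma) and -1.96 (SE 0.41, adjusted p = 0.000776). LOC105184902 was at 4.83, 6.93 and 10.6 FPKM in hunting workers, against 23.2, 21.7, 23.5 and 19.5 FPKM in day 10 workers, and at 6.84, 8.87 and 11.7 FPKM in day 120 gamergates, against 27.5, 23.1, 15.7, 26.9 and 18.3 FPKM in duelers. Neither pair overlapped, and the log2 differences were -1.55 (SE 0.19, adjusted p = 6.85e-07 in limma) in workers and -1.25 (SE 0.20, adjusted p = 5.52e-05) in the gamergate line.

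The long noncoding RNA LOC112588165 averaged 7.16 ± 1.85 FPKM in hunting workers (SD, n = 9), against 15.1 ± 1.91 FPKM in day 10 workers (n = 4), and 5.72 ± 1.15 FPKM in day 120 gamergates (n = 6), against 12.6 ± 2.69 FPKM in duelers (n = 5). The groups did not overlap in either line, and the log2 differences were -1.06 (SE 0.22, adjusted p = 0.000705 in limma) and -1.08 (SE 0.23, adjusted p = 0.00105). In workers the difference was -0.62 after scaling to TPM. Hexo1 fell least, with log2 differences of -0.61 in workers (SE 0.21, adjusted p = 0.0293) and -0.64 in the gamergate line (SE 0.22, adjusted p = 0.0297). It was -0.17 in workers after TPM scaling (adjusted p = 0.501), where the median of all genes was 0.41. Without day 10 worker replicate 3 it was -0.49 (adjusted p = 0.156), and without day 120 gamergate replicate 1 it was -0.51 (adjusted p = 0.153).

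**Figure D5:**
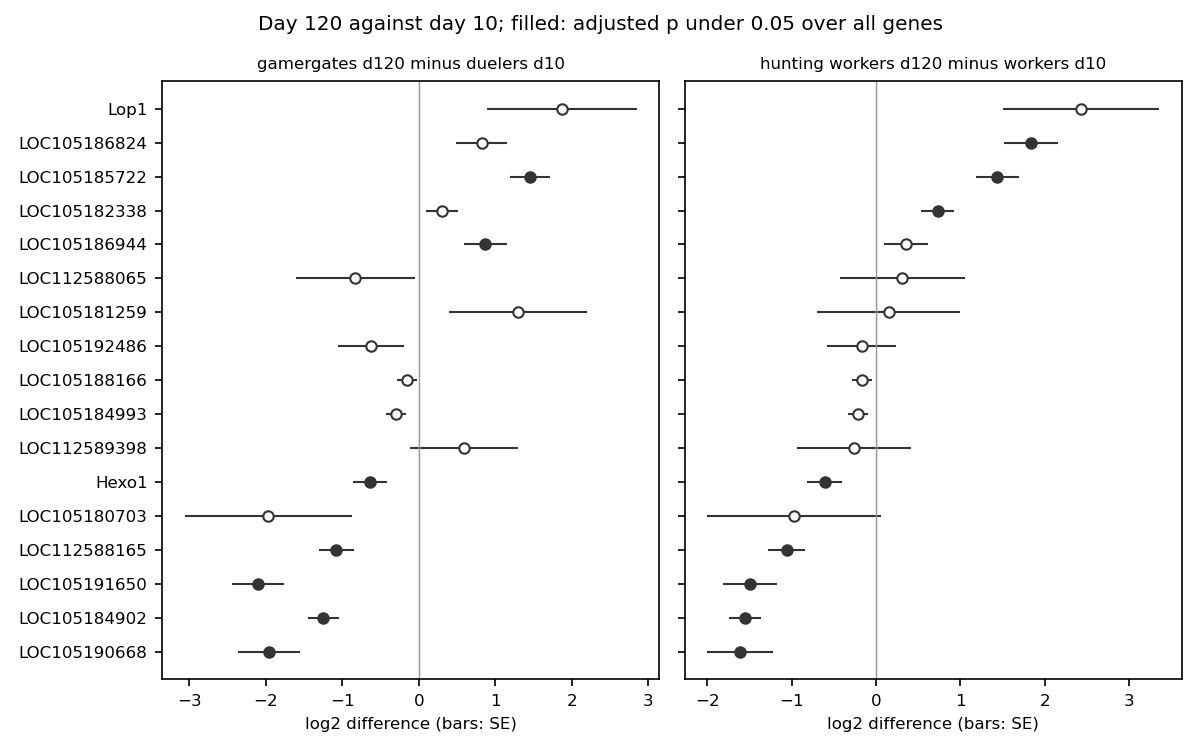
Log2 differences of the 17 genes between day 120 and day 10, with SE as bars, in the gamergate line (left) and in workers (right). Filled points mark an adjusted p under 0.05 over all 9986 genes, 7 in the gamergate line and 8 in workers, with LOC105185722 at 1.45 and 1.44 on the positive side and LOC105191650 at -2.10 and -1.49 on the negative side.

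Lop1 had the largest positive estimate in both lines, 2.43 in workers (SE 0.93, adjusted p = 0.0530 in limma) and 1.87 in the gamergate line (SE 0.98, adjusted p = 0.158), and neither was called. In workers it was called in 6 of 25 alternatives, with an adjusted p from 0.00735 to 0.349 over them, and in the gamergate line in 0 of 23. LOC105180703 stood at -0.97 (SE 1.03) and -1.97 (SE 1.09), and was not called either (adjusted p = 0.521 and 0.183).

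At day 20 fewer of the 17 were called. In day 20 workers against day 10 workers 2 of 17 were called, both higher, where 21.4% of all genes were called, 11.9% higher and 9.49% lower. Beside LOC105185722 this was LOC105182338, with 6.46, 8.08, 9.84 and 11.5 FPKM in day 20 workers, against 7.12, 5.32, 3.56 and 4.09 FPKM in day 10 workers, a log2 difference of 0.79 (SE 0.23, adjusted p = 0.0142 in limma). Of the day 20 workers, 3 of 4 were above every day 10 worker. Leaving out day 10 worker replicate 3 ended that call (0.66, adjusted p = 0.0759), as did leaving out day 20 worker replicate 4 (0.67, adjusted p = 0.0644), which left 1 of 17 called in each case. TPM scaling called 4 of 17, where it called 30.3% of all genes, and a fit of the compared groups alone called 4.

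In day 20 gamergates against day 10 duelers 3 of 17 were called, 1 higher and 2 lower, where 25.8% of all genes were called, 14.0% higher and 11.7% lower. The lower ones were LOC105184902, at 14.4 ± 3.49 FPKM in day 20 gamergates and 22.3 ± 5.21 FPKM in duelers (SD, n = 5 each), and Hexo1, at 8.42 ± 1.76 and 12.9 ± 2.02 FPKM. Their log2 differences were -0.62 (SE 0.20, adjusted p = 0.0237 in limma) and -0.60 (SE 0.22, adjusted p = 0.0413). The call of LOC105184902 held in 13 of 21 alternatives and that of Hexo1 in 7 of 21. Both were lost without dueler replicate 1 (-0.54 and -0.63, adjusted p = 0.0718 and 0.0518) or dueler replicate 4 (-0.55 and -0.56, adjusted p = 0.0576 and 0.0730), and under TPM scaling (-0.56 and -0.54, adjusted p = 0.0677 and 0.0901), each of which left 1 of 17 called.

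Markers of several cell types also differed between day 10 and day 120, where age and run cannot be told apart. At day 20, in another run, the neuronal sum was 600 to 1517 FPKM in gamergates and 648 to 1073 FPKM in workers. Both day 20 ranges reached below every day 120 value, and that of gamergates above every day 10 value. The values below are those of days 10 and 120. The neuronal sum was 735 to 974 FPKM in hunting workers, against 1070 to 1307 FPKM in day 10 workers, and 749 to 832 FPKM in day 120 gamergates, against 990 to 1087 FPKM in duelers. The glial sum, from 5 of 7 genes, was 254 to 492 FPKM in hunting workers, against 509 to 750 FPKM in day 10 workers, and 317 to 465 FPKM in day 120 gamergates, against 545 to 623 FPKM in duelers. Between days 10 and 120 no pair of these neuronal or glial ranges overlapped, but Gs2 held 86.4% of the glial sum in adults. Without it the glial sum was 46.9 to 64.0 FPKM in hunting workers, against 62.3 to 85.2 FPKM in day 10 workers, and 53.6 to 70.5 FPKM in day 120 gamergates, against 60.3 to 70.4 FPKM in duelers, and both pairs overlapped. The fat body and yolk sum was 1940 to 3946 FPKM in hunting workers, against 2423 to 2714 FPKM in day 10 workers, and 3026 to 6306 FPKM in day 120 gamergates, against 2047 to 2465 FPKM in duelers, without overlap in the gamergate line. Tsf1, a transferrin symbol, held 80.4% of it, and without Tsf1 it was 588 to 4004 FPKM in day 120 gamergates, against 213 to 351 FPKM in duelers. The sum of 18 cuticle symbols was 32.2 to 148 FPKM in hunting workers, against 150 to 27159 FPKM in day 10 workers, and 36.5 to 61.5 FPKM in day 120 gamergates, against 69.4 to 9673 FPKM in duelers, with CPR11 at 0 in every adult library. Of that sum apd-3l held 96.7%, and without it the ranges were 32.2 to 148 FPKM in hunting workers, against 39.2 to 354 FPKM in day 10 workers, and 36.5 to 61 FPKM in day 120 gamergates, against 52.8 to 198 FPKM in duelers. The muscle sum, from 9 of 13 genes, was 16.8 to 75.6 FPKM, against 51.4 to 559 FPKM in workers, and 20.3 to 159 FPKM, against 34.8 to 809 FPKM, in the gamergate line, with Scp1 at 0 in at least 1 adult library. Hemocyte markers, 4 of 7 measured, had sums of 13.9 to 30.8 FPKM in adults. The part of these markers in the changes of the 17 genes was not tested.

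Within adult groups, some of the genes that changed with age varied with the neuronal, glial or hemocyte list. Both day 120 groups held libraries of runs 1 and 4, so a difference between these runs enters the values over 33 libraries. Deviations of LOC105184902 and of the neuronal list from the group means gave Pearson's r = -0.73 and Spearman's rho = -0.71 over 33 libraries (permutation p = 1e-05 and 3.00e-05, adjusted p = 0.00112 and 0.000840 over 112 relations), at -0.76, -0.97 and -0.34 in runs 2, 5 and 4 and -0.64 without the 2 farthest libraries. For LOC105182338 r was -0.78 and rho -0.73 (permutation p = 5.00e-05 and 3.00e-05, adjusted p = 0.00112 and 0.000840), at -0.35, -0.97 and -0.25 in the 3 runs and -0.64 without 2. For LOC105185722 r was -0.59 and rho -0.54 (permutation p = 0.000410 and 0.00166, adjusted p = 0.00656 and 0.0207), at -0.44, -0.87 and -0.29 in the runs and -0.59 without 2. All 3 were thus weakest in run 4 among the runs with a value. LOC105190668 and the glial list had r = -0.73 and rho = -0.79 (permutation p = 2.00e-05 and 1e-05, adjusted p = 0.00112 and 0.000840), at -0.86 and -0.87 in runs 2 and 5 but -0.12 in run 4, so the relation did not hold there, and at -0.67 without 2. With the hemocyte list LOC105190668 had r = -0.59 and rho = -0.57 (permutation p = 0.00288 and 0.00284, adjusted p = 0.0293 and 0.0275), at -0.89, -0.17 and -0.37 in runs 2, 5 and 4 and -0.54 without 2. LOC112588165 and the hemocyte list had r = -0.54 and rho = -0.63 (permutation p = 0.00375 and 0.000430, adjusted p = 0.0350 and 0.00688), at -0.63, -0.32 and -0.72 in the 3 runs and -0.54 without 2. Of the genes not called with age, LOC105192486 had r = -0.52 with the glial list (rho = -0.63, permutation p = 0.00220 and 0.000160, adjusted p = 0.0265 and 0.00358, -0.44 without 2, -0.87, -0.72 and -0.34 in the runs). With the hemocyte list it had r = -0.68 (rho = -0.63, permutation p = 4.00e-05 and 0.000390, adjusted p = 0.00112 and 0.00688, -0.66 without 2, -0.86, -0.25 and -0.84 in the runs). LOC105188166 had r = 0.68 with the glial list (rho = 0.65, permutation p = 0.000310 and 0.000540, adjusted p = 0.00579 and 0.00756, 0.64 without 2, 0.76, 0.82 and 0.50 in the runs). With the hemocyte list it had r = 0.55 (rho = 0.56, permutation p = 0.00549 and 0.00186, adjusted p = 0.0473 and 0.0208, 0.48 without 2, 0.66, 0.86 and 0.21 in the runs).

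For 6 of the 17 genes the reference places another gene over the same stretch, namely LOC105190669 beside LOC105190668, LOC105186826 beside LOC105186824, Ance-3 beside LOC105191650, LOC105190229 beside LOC112588165, mu2 beside LOC105182338 and LOC105184992 beside LOC105184993. The libraries kept the strand, but the sources used here do not state whether counting used it, so the levels of these 6 are uncertain to that extent. LOC105190229 had a pupal mean of 73.0 FPKM beside 0.449 FPKM for LOC112588165, and LOC105190669 one of 17.5 FPKM beside 0.840 FPKM for LOC105190668.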

How the data were processed

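RNA-seq levels of 37 libraries in 7 groups were read as FPKM from a single table of 14001 genes that the authors deposited. They used bcl2fastq, STAR and featureCounts, per the submitters' processing notes. Not given in the sources used here were tool versions, the build and the strand setting. Identifiers were matched to a reference table of assembly Hsal_v8.6 (13989 matched, 12 not), used for symbols, biotype and gene order only, with no coordinates or sequences. It gives no product names, so 18 lists by product name and a gland marker list could not be applied, and the cuticle list used symbols. The 17 genes and the lists were chosen with earlier results of these data known.

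Tests used limma 3.58.1 under R 4.3.3 (lmFit, eBayes with trend) on log2(FPKM + 0.5), for genes at 1 FPKM or more in at least 4 libraries, which left 9986. All libraries entered 1 fit with a mean per group and, for day 120, a term for the run. The p-values are two-sided and adjusted, by Benjamini-Hochberg, over all genes tested, with 0.05 as threshold. Folds on this scale understate changes of low genes. The procedure was tested on simulated data. Low FPKM values fell on single-read steps, and whole reads were recovered for all 13445 genes above 0 (tolerance 0.1 read), giving depths of 9.20 to 55.78 M reads per library. The parts of counting error and of the spread between libraries in the precision of adult values were not compared. The lowest adult library held 8 reads for Lop1 and 26 for LOC112589398. Marker lists were summed in FPKM. Correlations used log2 levels (for lists, the mean over the list) as deviations from group means, with 100000 permutations within groups. Run was not removed within the day 120 groups, so these r and p values do not separate it from a relation within a run. For LOC105180703 the log2 levels themselves were used, permuted within each set of libraries across groups.

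The genes named were the 12 with the highest adult mean, those called in a comparison (up to 5 per direction), those nearest each limit, and the 5 most and 5 least variable between adult groups. Other settings were pseudocounts of 0.1 and 1, no filter or one of 5 FPKM, TPM scaling, quantile normalization, adult libraries only, compared groups only, run 4 only or no run term, leaving out each library, a replicate block, and, chosen after seeing the data, limma-voom on recovered reads, array weights and leaving out each pupa. Replicate numbers were not taken as pairs, because in no comparison was every same-numbered correlation over 0.1. Day 20 gamergates and workers came closest, with r from 0.10 to 0.45 over 4 pairs, 3 of them over 0.1.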

Additional observations from a re-analysis of the deposited data

Results flagged for a closer look

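Among 119 sets of libraries of 1 gene and 1 group, 13 held a highest or lowest library far from the others by Dixon's gap ratio on FPKM. For normal values chance marks about 1 in 20, but FPKM were not checked for this, so the 13 are not set against that rate. Pupal replicate 2 was the far library in 5 of the 13. It was at 0.715 FPKM for LOC105185722, 1.06 for LOC112588065, 1.80 for LOC105191650, 0.433 for LOC105184902 and 1.31 for LOC112588165, with the next pupa at 0.0542, 0.0695, 0.0729, 0.0388 and 0.218 FPKM. Pupal replicate 1 was at 1.26 FPKM for LOC105184993, with the next at 0.883.

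Lop1 was at 69.1 FPKM in day 10 worker replicate 3, with the next worker at 6.17, and at 212 FPKM in day 120 gamergate replicate 2, with the next gamergate at 48.4. Hunting worker replicate 7 was at 292 FPKM for LOC112588065 and 8.99 FPKM for LOC105184993, with the next at 92.5 and 6.05. Hunting worker replicate 3 was at 76.9 FPKM for LOC105185722, with the next at 56.1, and replicate 4 at 26.3 FPKM for LOC105186944, with the next at 12.7. Day 10 worker replicate 1 was the lowest for LOC105190668, at 106 FPKM, with the next at 238.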

How the results depend on the processing

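Of 20 calls of a gene in an age comparison, 13 held in every alternative tried, and over all 462 alternative values 415 held, 47 lost the call and 0 reversed. The calls lost were those of Hexo1, of LOC105182338, of LOC105186944 and, for day 20 gamergates against duelers, of LOC105184902. Array weights called 1 gene for caste at day 120, 11 for day 120 gamergates against duelers, 7 for day 20 gamergates against duelers and 5 for day 20 against day 10 workers. For day 20 against day 10 workers, with 2 called, the count was 4 with TPM scaling, 4 with the compared groups only, 4 with limma-voom and 1 to 3 when single libraries were left out. For day 20 gamergates against duelers, with 3 called, it was 1 with a pseudocount of 0.1, 1 with TPM scaling, 1 with limma-voom and 1 to 3 when single libraries were left out. The cause of these shifts was not tested. TPM scaling put the median log2 difference of all genes at up to 0.41. The number of genes meeting the rule was 11 with every pupal library under 1 FPKM, 4 with every adult library at 5 FPKM or more, and 16 to 32 when single pupae were left out, 32 being the count without replicate 2. That number was 16 with adult group medians of at least 5 FPKM and 16 with TPM scaling. With the replicate number as a block the counts were 7 for hunting workers against day 10 workers, 6 for day 120 gamergates against duelers, 2 for day 20 gamergates against duelers, 2 for day 20 against day 10 workers and 0 in the caste comparisons. Reads in pupae, 3 to 283 per gene in all, limit how low the pupal levels can be placed.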
